A study of Mus musculus with 6 samples.

Results

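The mitochondrial genome of the mouse encodes the RNAs described here, measured in hearts of old and young mice. Members were taken by name: every row of the count table whose gene name starts with mt-. This gave 37 of the 43629 named gene models, in 3 subgroups of 13 protein-coding genes (mRNAs), 2 ribosomal RNA genes (mt-Rnr1 and mt-Rnr2) and 22 transfer RNA genes (mt-T followed by the letter of the amino acid). Old hearts came from male C57BL/6 mice aged 22 months and young hearts from male C57BL/6 mice aged 2 months, with 3 hearts from separate animals in each group. The labels name no genetic change and no treatment, and all animals had normal chow and the same light cycle. Total RNA of the heart was sequenced by a commercial provider, although the extraction text in the labels speaks of NRVMs, a name for another kind of sample that is not explained there. Whether the libraries were made by poly(A) selection or rRNA removal, and whether they keep the strand, is not given in the sources used here.

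Mitochondrial DNA is a small circle that is transcribed from both strands into long precursor RNAs. The tRNAs lie between most of the mRNAs and rRNAs and are cut out of the precursors, which frees the RNAs on either side. The mRNAs encode core subunits of respiratory complexes I, III and IV and of ATP synthase, the rRNAs form the mitochondrial ribosome, and all other proteins of the system are encoded in the nucleus. The heart is among the tissues richest in mitochondria, and nuclear chromosomes carry old copies of mitochondrial sequence whose reads can be hard to tell from those of the circle.

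Libraries held between 13624514 and 15525942 counts on named gene models. Levels are given as CPM, counts scaled to the size of the library with edgeR's TMM factors, and, where genes of different length are compared, as the FPKM values the authors deposited. A log2 fold change is that of old over young ± SE, with an adjusted p from edgeR's quasi-likelihood test (Benjamini-Hochberg over all 14413 genes tested). A gene is called changed at an adjusted p under 0.05. Of all genes tested 15.1% were called, 8.72% higher and 6.36% lower in old hearts, and the median log2 fold change was 0.02. In a bulk sample, fewer cells of a type and less RNA per cell cannot be told apart.

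Beside the members, marker sums of the cell types of the heart differed between the groups. Summed levels of 10 cardiomyocyte genes, all detected, ran from 50482 to 56298 CPM in old hearts and from 58974 to 66420 CPM in young hearts, without overlap (1 called higher and 3 lower). The 5 endothelial genes summed to 741.7 to 782.4 CPM in old hearts and 1104 to 1260 CPM in young hearts (3 lower), and the 5 smooth muscle and pericyte genes to 571.8 to 868.6 CPM in old hearts and 975.4 to 1158 CPM in young hearts (2 lower). The 4 macrophage genes in the table summed to 204.3 to 245.1 CPM in old hearts and 126.2 to 146.7 CPM in young hearts (1 higher). Fibroblast and erythroid sums overlapped between the groups. Sums of 5 adipocyte genes (38.2 to 52.9 CPM in old hearts, 34.4 to 36.8 CPM in young hearts) and of 5 skeletal muscle genes (3.62 to 5.27 CPM in old hearts, 1.79 to 2.96 CPM in young hearts, 1 gene at 0 in all libraries) were low. The part of these differences in the results below was not tested.

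The nucleus also holds sequence of some members, and neighbouring members share bases, so 3 stretches are shown first. A search of the nuclear transcripts of GENCODE M21 found 7 pseudogene models on chromosome 1, between 24611535 and 24616197 (GRCm38, minus strand), that match the mitochondrial genome from 6390 to 11042. Position between the models was carried over at the offset of the aligned bases. By position, this stretch spans 11 members whole (6 of them mRNAs) and parts of mt-Co1 and mt-Nd4, and leaves 24 members outside. mt-Atp8 and the 5 tRNAs within it have no model of their own there, and whether chromosome 1 holds their whole sequence was not tested. The models of mt-Co2 (Gm28661), mt-Atp6 (Gm10925), mt-Co3 (Gm28437), mt-Nd4l (Gm10222) and the start of mt-Nd4 (Gm28439) are 100% identical to the circle over all bases aligned. Gm28438 differs from mt-Nd3 at 1 of 345 bases. The first 60 bases of mt-Nd3 (chrM:9459-9518, plus strand) and of its copy (chr1:24613060-24613119, minus strand) show this base in capitals, the substitution T3C counted from the start of the gene.
mt-Nd3: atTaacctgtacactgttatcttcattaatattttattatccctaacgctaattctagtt
Gm28438: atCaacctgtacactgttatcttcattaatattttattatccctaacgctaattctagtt
The first 60 bases of mt-Co2 (chrM:7013-7072, plus strand) are the same in its copy on chromosome 1 (chr1:24615506-24615565, minus strand), and differ from a more divergent copy on chromosome 2, Gm13341 (chr2:22587903-22587962, minus strand), by the substitutions C25T and G57A, in capitals.
mt-Co2: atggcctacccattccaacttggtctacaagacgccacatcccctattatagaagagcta
Gm28661: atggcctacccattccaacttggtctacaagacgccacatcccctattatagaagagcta
Gm13341: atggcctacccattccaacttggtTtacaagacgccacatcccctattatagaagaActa
A read from this part of mt-Co2 fits the circle and chromosome 1 equally well, whereas the copy on chromosome 2 can be told apart at the bases in capitals. Neighbouring members share bases too. The end of mt-Atp8 and the start of mt-Atp6 overlap by 43 bases (chrM:7927-7969, plus strand), shown with the first codon of mt-Atp6 and the last codon of mt-Atp8 in capitals.
mt-Atp8 and mt-Atp6: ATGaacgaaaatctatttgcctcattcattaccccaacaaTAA
mt-Nd4l and mt-Nd4 share 7 bases on one strand, and mt-Nd5 and mt-Nd6 share 14 bases on opposite strands. These sequences are those of the GENCODE M21 transcripts. How the authors' counting treated reads with several best matches or on 2 genes is not given in the sources used here.

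Of the 37 members 31 passed edgeR's filter on low counts, all 13 mRNAs, both rRNAs and 16 of 22 tRNAs. Only mt-Nd3 was called among them, higher in old hearts, and 0 were called lower, beside 15.1% of all genes tested (edgeR). At an unadjusted p under 0.05 there were 4 members, mt-Nd3, mt-Rnr2, mt-Co2 and mt-Rnr1, beside 32.5% of all genes. DESeq2 called 3, mt-Nd3 and mt-Rnr2 higher and mt-Co2 lower, beside 16.9% of all genes. The old and young libraries did not overlap in 2 of the 31 tested members, mt-Nd3 and mt-Rnr2, beside 37.3% of all genes. The median log2 fold change was −0.25 over the mRNAs (2 above 0 and 11 below 0), 0.65 over the rRNAs and 0.14 over the tested tRNAs (11 above 0 and 5 below 0).

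The 3 old hearts differed from each other more than the 3 young hearts did. Set against the mean of the young hearts, the median of the 13 mRNAs was 0.76 in old 1, 0.575 in old 2 and 1.01 in old 3, against 1.01, 1.05 and 0.949 in young 1, young 2 and young 3. Old 2 held the lowest value of all libraries in 21 of the 31 tested members (9 mRNAs and 12 tRNAs, neither rRNA), beside 22.8% of all genes tested. Old 3 held the highest value in 15 of the 31 tested members, and the share of all genes highest in old 3 was not counted. A mean over the old group therefore lies between hearts that stood apart.

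Which members were called turned on single hearts. Without old 1 the calls were mt-Rnr2, mt-Rnr1, mt-Nd3 and mt-Ts1 higher and mt-Atp8 lower, 5 in all, beside 37.9% of all genes. Without old 2 they were mt-Nd3 and 4 tRNAs, all higher, beside 10.4% of all genes. Without old 3 they were mt-Co1, mt-Nd5 and mt-Nd2, all lower, beside 6.23% of all genes. Without young 1 only mt-Co2 was called, lower, beside 3.63% of all genes, and without young 2 or young 3 there were 0 calls (edgeR, with 2 and 3 members at an unadjusted p under 0.05), beside 3.65% and 4.18% of all genes. With RLE factors (15% of all genes called), upper-quartile factors (15.3%), scaling from nuclear genes (15.1%), a filter at 1 CPM (15.6%), limma-voom (14.0%), the replicate number as a block (12.3%) and the chromosome 1 copy reads added (15.1%), mt-Nd3 was the 1 member called. With no filter on low counts the calls were those of DESeq2, beside 11.9% of all genes.

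**Figure D1:**
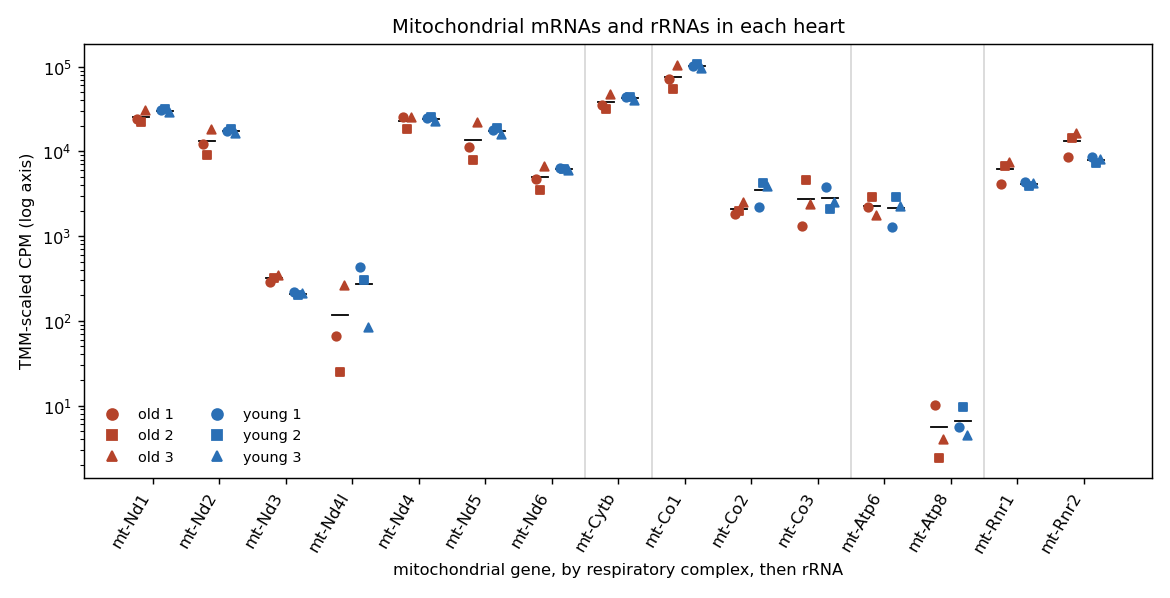
TMM-scaled CPM (log axis) of the 13 mitochondrial mRNAs and 2 rRNAs in each heart, with 3 old hearts at the left of each gene and 3 young hearts at the right; black lines are group means and grey lines separate complex I, complex III, complex IV, ATP synthase and the rRNAs. The 3 old hearts lie above the 3 young hearts for mt-Nd3 and, narrowly, for mt-Rnr2, and old 2 is the lowest library for 9 of the 13 mRNAs.

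The mRNAs of complex I, the entry point for electrons from NADH, gave the only call. mt-Nd3 encodes a small membrane subunit near the quinone site (ENSMUSG00000064360, chrM:9459-9806). It had 289.8, 322.0 and 343.8 CPM in old 1, old 2 and old 3, against 217.2, 199.6 and 211.8 CPM in young 1, young 2 and young 3. All old hearts lay above all young hearts, with means of 318.5 ± 27.2 CPM in old and 209.5 ± 8.99 CPM in young hearts (SD, n = 3 each). The log2 fold change was 0.60 ± 0.13 (edgeR adjusted p = 0.016). With 1 library left out it ran from 0.54 to 0.67, and the call ended without old 3 (edgeR adjusted p = 0.0508), young 1 (0.077), young 2 (0.101) or young 3 (0.0949).

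The chromosome 1 copy of mt-Nd3 held a sizeable share of the reads counted on either gene. Gm28438 held 18.4%, 32.8% and 25.5% of the summed reads in old 1, old 2 and old 3, against 32.2%, 31.3% and 29.2% in young 1, young 2 and young 3. The share was highest in old 2 and lowest in old 1, so the groups overlapped. With the reads of Gm28438 added to mt-Nd3, the log2 fold change was 0.51 ± 0.15 (edgeR adjusted p = 0.0471), and the old hearts still lay above the young ones (355.1, 479.2 and 461.5 CPM in old hearts against 320.5, 290.4 and 299.4 CPM in young hearts).

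The other complex I mRNAs did not pass the test, and their log2 fold changes were all below 0. mt-Nd4l had 66.7, 24.7 and 261.3 CPM in old 1, old 2 and old 3, against 429.3, 303.1 and 84.1 CPM in young 1, young 2 and young 3. Both groups spread over several-fold, old 3 lay among the young hearts and young 3 among the old ones (log2 fold change −1.21 ± 0.77, edgeR adjusted p = 0.301). Its copy Gm10222 was nearly level across the libraries (45.05 to 63.8 CPM in old and 50.4 to 58.6 CPM in young hearts), so that the copy took from 12.0% to 69.4% of their sum. mt-Nd5, a proton-pumping subunit, had 11121, 7844 and 21930 CPM in old 1, old 2 and old 3, against 17806, 18698 and 15991 CPM in young 1, young 2 and young 3. Old 1 and old 2 lay below and old 3 above all young hearts (−0.36 ± 0.31, edgeR adjusted p = 0.456), and the old hearts took the same places for mt-Nd2 and mt-Nd6. For mt-Nd1 old 3 lay within the young range. The log2 fold changes were −0.25 ± 0.16 for mt-Nd1, −0.40 ± 0.23 for mt-Nd2, −0.32 ± 0.21 for mt-Nd6 and −0.08 ± 0.16 for mt-Nd4 (edgeR adjusted p = 0.259 to 0.783). Without old 3 mt-Nd5 (−0.88, edgeR adjusted p = 0.0323) and mt-Nd2 (−0.70, 0.0453) were called lower.

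mt-Cytb encodes cytochrome b, the only member that belongs to complex III, which passes electrons from ubiquinol to cytochrome c. It had 35186, 31683 and 47814 CPM in old 1, old 2 and old 3, against 43674, 43318 and 40622 CPM in young 1, young 2 and young 3. The old hearts lay on both sides of the young ones (−0.15 ± 0.17, edgeR adjusted p = 0.571).

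The complex IV mRNAs encode the catalytic core of cytochrome c oxidase. mt-Co1, the subunit that binds oxygen and the most abundant mitochondrial mRNA (ENSMUSG00000064351, chrM:5328-6872), had 71463, 53924 and 103414 CPM in old 1, old 2 and old 3, against 101774, 108322 and 96611 CPM in young 1, young 2 and young 3. Old 1 and old 2 lay below all young hearts and old 3 lay within their range (−0.42 ± 0.22, edgeR adjusted p = 0.215). Without old 3 mt-Co1 was called lower (−0.71, edgeR adjusted p = 0.0427).

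mt-Co2, which takes electrons from cytochrome c (ENSMUSG00000064354, chrM:7013-7696), had 1808, 1995 and 2532 CPM in old 1, old 2 and old 3, against 2177, 4283 and 3949 CPM in young 1, young 2 and young 3. Young 1 lay among the old hearts (−0.72 ± 0.25, edgeR adjusted p = 0.078). Without young 1 it was called lower (−0.97, edgeR adjusted p = 0.0357), and it was also called with DESeq2 (−0.72, adjusted p = 0.018) and in edgeR with no filter on low counts (−0.73, adjusted p = 0.0127). The identical copy Gm28661 took 42.7%, 35.6% and 29.2% of the sum in old 1, old 2 and old 3, against 37.1%, 19.6% and 18.8% in young 1, young 2 and young 3. The copy's share was high in the libraries where mt-Co2 was low, young 1 included, and it is itself computed from the mt-Co2 reads. The sum of both had a log2 fold change of −0.47 ± 0.18 (edgeR adjusted p = 0.0963). mt-Co3 had 1325, 4578 and 2385 CPM in old 1, old 2 and old 3, against 3798, 2114 and 2514 CPM in young 1, young 2 and young 3, a log2 fold change of −0.02 ± 0.39 (edgeR adjusted p = 0.975) that was 0.02 with its copy added. Its highest library held 3.46 times its lowest in old hearts and 1.80 times in young hearts, and old 2, lowest for most mRNAs, was the highest here.

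By position, both ATP synthase members lie inside the copied stretch. mt-Atp6, part of the proton channel, had 2217, 2886 and 1752 CPM in old 1, old 2 and old 3, against 1271, 2885 and 2234 CPM in young 1, young 2 and young 3, with a wide overlap (0.10 ± 0.28, edgeR adjusted p = 0.834). mt-Atp8, which shares its end with mt-Atp6, had only 2.41 to 10.1 CPM in old and 4.44 to 9.50 CPM in young hearts (−0.23 ± 0.48, edgeR adjusted p = 0.772). Without old 1 it was called lower (−1.03, edgeR adjusted p = 0.048), and without old 2 or young 2 its log2 fold change was above 0 (0.13 and 0.14).

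**Figure D2:**
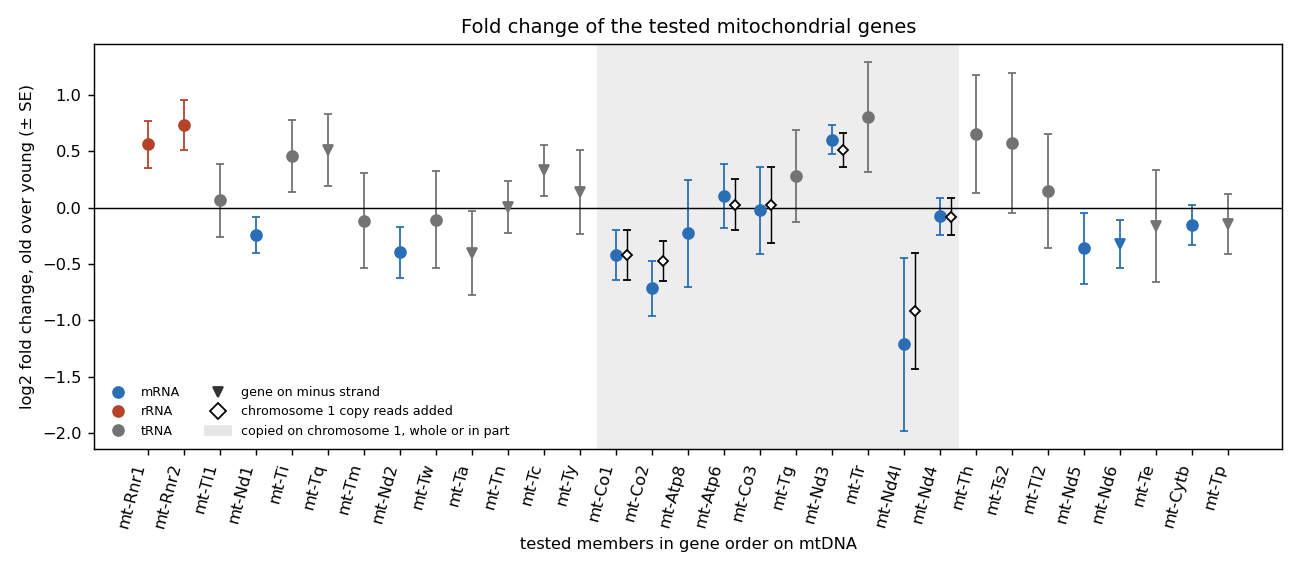
Log2 fold change of old over young ± SE for the 31 tested members in their order on the mitochondrial genome, coloured by subgroup. Triangles are genes on the minus strand, and open diamonds the 7 members refitted with the reads of the chromosome 1 copy added. Grey marks members that by position lie wholly or partly in the stretch matched on chromosome 1, also those without a model of their own there. mt-Nd3 (0.60) and both rRNAs (0.56 and 0.73) lie above 0 by more than 2 SE, and the 5 mRNAs outside the grey stretch lie between −0.40 and −0.15.

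The spread between hearts was set beside the place of each mRNA inside or outside the chromosome 1 copy. Among the 6 mRNAs inside it the coefficient of variation was 8.52% to 107% in old hearts, with a median of 42.5%, and 4.29% to 64.2% in young hearts, with a median of 35.4%. Among the 5 mRNAs wholly outside it (mt-Nd1, mt-Nd2, mt-Nd5, mt-Nd6 and mt-Cytb) the coefficient was 17.9% to 54.1% in old hearts, with a median of 32.0%, and 2.93% to 7.88% in young hearts, with a median of 4.80%. The medians inside and outside were thus far apart in young hearts and nearer to each other in old hearts. Levels per length also differed. The 5 mRNAs outside had mean FPKM values of 7141 to 31940 in old and 9207 to 35680 in young hearts, and the 6 inside had 25.7 to 3380 in old and 30.7 to 4865 in young hearts. The lowest of the mRNAs outside thus lay above the highest of those inside at both ages. So did mt-Co1 and mt-Nd4, copied in part, with 15959 to 47167 in old and 16894 to 63499 in young hearts. Their coefficients of variation were 18.3% to 32.9% in old and 4.61% to 5.74% in young hearts, although 63.6% of mt-Nd4 aligns to its copy. The part that the authors' handling of shared reads played in these differences was not tested.

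More divergent nuclear copies were also measured. Gm13340 on chromosome 2 (ENSMUSG00000083563, chr2:22588103-22589647, minus strand) aligns to all 1545 bases of mt-Co1 with 97.6% identity. It had 53.7, 42.98 and 72.0 CPM in old 1, old 2 and old 3, against 179.9, 158.2 and 167.4 CPM in young 1, young 2 and young 3. All old hearts were far below all young ones (log2 fold change −1.58 ± 0.19, edgeR adjusted p = 0.00196). The call held with each library left out (−1.80 to −1.42, edgeR adjusted p = 0.000326 to 0.0162). Per 1000 reads of mt-Co1, Gm13340 had 0.752, 0.797 and 0.696 reads in old 1, old 2 and old 3, against 1.77, 1.46 and 1.73 reads in young 1, young 2 and young 3. The number of Gm13340 reads per mt-Co1 read was thus lower in every old heart than in any young heart, and whether these reads come from the nuclear copy, from mt-Co1 reads with mismatches or from another source was not tested.

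The 2 pseudogenes beside it on chromosome 2 had few reads. Gm13341, matching mt-Co2 at 95.9%, had 0.306 to 1.11 CPM in old and 1.29 to 1.65 CPM in young hearts, without overlap (−1.15 ± 0.47, edgeR adjusted p = 0.128). Gm13339, matching the end of mt-Nd2 at 96.7%, had 3.49 to 7.02 CPM in old and 5.84 to 6.78 CPM in young hearts (−0.25 ± 0.26, edgeR adjusted p = 0.535). None of the 7 chromosome 1 models was called in edgeR with all libraries, the filter on low counts and no block. Gm28439, the copy of the start of mt-Nd4, had 138.1, 80.0 and 199.7 CPM in old 1, old 2 and old 3, against 222.2, 246.4 and 253.6 CPM in young 1, young 2 and young 3 (−0.79 ± 0.27, edgeR adjusted p = 0.0788). All its old hearts lay below all young ones. It was called lower with DESeq2 (−0.80, adjusted p = 0.0167) and in edgeR with no filter (−0.80, adjusted p = 0.00717). It was also called with the block (−0.88, edgeR adjusted p = 0.041) and without old 3 (−1.14, edgeR adjusted p = 0.0323). Gm28438 was called higher without old 1 (0.55, edgeR adjusted p = 0.0107). Shares of all genes called in these settings are given above.

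**Figure D3:**
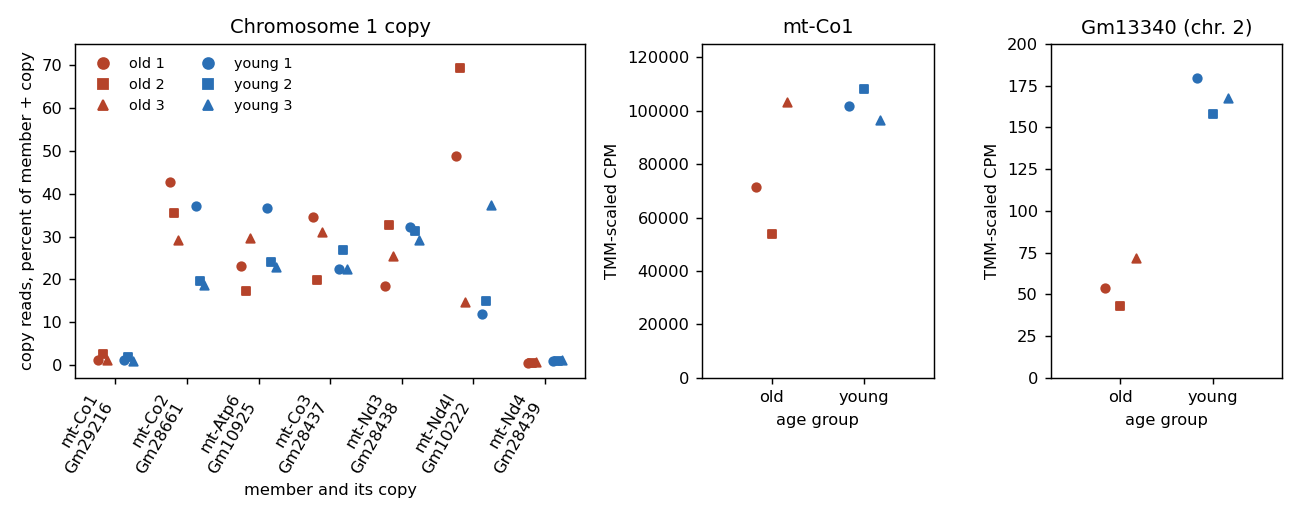
Left, reads on the chromosome 1 copy as percent of the reads on member and copy together, for the 7 copied members, with 3 old hearts at the left and 3 young hearts at the right of each; middle and right, TMM-scaled CPM of mt-Co1 and of its chromosome 2 copy Gm13340. The copy held up to 69.4% of the sum for mt-Nd4l but at most 2.45% for mt-Co1, and Gm13340 was at 42.98 to 72.0 CPM in old hearts and 158.2 to 179.9 CPM in young hearts.

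Both rRNAs were higher on average in old hearts, with old 1 close to the young hearts. mt-Rnr2, the large-subunit rRNA (ENSMUSG00000064339, chrM:1094-2675), had 8598, 14280 and 16610 CPM in old 1, old 2 and old 3, against 8470, 7238 and 8038 CPM in young 1, young 2 and young 3. Old 2 and old 3 stood well above the young hearts and old 1 only just above young 1 (0.73 ± 0.22, edgeR adjusted p = 0.0546). On the FPKM scale old 1 (5148) lay just below young 1 (5154), so that the groups overlapped there. mt-Rnr1, the small-subunit rRNA (ENSMUSG00000064337, chrM:70-1024), had 4143, 6751 and 7507 CPM in old 1, old 2 and old 3, against 4390, 3893 and 4175 CPM in young 1, young 2 and young 3. Old 1 lay within the young range and the other old hearts above it (0.56 ± 0.21, edgeR adjusted p = 0.0964).

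The rRNA calls depended on old 1. Without it both were called higher, beside 37.9% of all genes, mt-Rnr2 at 0.96 ± 0.13 (edgeR adjusted p = 0.00057) and mt-Rnr1 at 0.78 ± 0.12 (edgeR adjusted p = 0.00101). DESeq2 called mt-Rnr2 with all libraries (0.72, adjusted p = 0.0106), as did edgeR with no filter on low counts (0.72, adjusted p = 0.0117), and mt-Rnr1 missed the threshold in both (DESeq2 adjusted p = 0.0501, edgeR adjusted p = 0.0508). The number of mt-Rnr2 reads per 100 mt-Rnr1 reads was 207.5, 211.5 and 221.3 in old 1, old 2 and old 3, against 192.9, 185.9 and 192.5 in young 1, young 2 and young 3. All old hearts lay above all young hearts in this ratio (p = 0.1 in an exact two-sided permutation test, which cannot go lower with 3 hearts in each group).

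Neat1, a long noncoding RNA kept in the nucleus, had the same order of old hearts as the rRNAs. How many of all genes had this order was not counted. It had 3870, 6549 and 10567 CPM in old 1, old 2 and old 3, against 3357, 3675 and 3437 CPM in young 1, young 2 and young 3 (1.003 ± 0.30, edgeR adjusted p = 0.0499). Of 8 tested genes whose RNA is kept in the nucleus or lacks a poly(A) tail it was the only one called higher, and Hist1h1c, a linker histone gene, was called lower (−1.04 ± 0.21, edgeR adjusted p = 0.0131). Neat1 was not called without old 3 (0.58, edgeR adjusted p = 0.147), without old 2 or without any 1 young heart (edgeR adjusted p = 0.0836 to 0.157), and Hist1h1c was not called without old 3, young 1 or young 3 (edgeR adjusted p = 0.054 to 0.0683). Malat1, another of these 8 and picked after its values were seen, did not have this order. It had 866.8, 345.0 and 785.7 CPM in old 1, old 2 and old 3, against 916.0, 975.6 and 884.6 CPM in young 1, young 2 and young 3 (−0.47 ± 0.28, edgeR adjusted p = 0.277). The median log2 fold change of these 8 was −0.44 (2 above 0 and 6 below 0). Library selection as a source of the rRNA difference was not tested.

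As a share of all counts on named genes, the 3 classes differed in how old hearts lay beside young ones. The 13 mRNAs held 19.9%, 16.2% and 25.1% of counts in old 1, old 2 and old 3, against 24.1%, 25.6% and 23.8% in young 1, young 2 and young 3. Old 1 and old 2 were below all young hearts and old 3 within their range (exact two-sided permutation p = 0.3). The 2 rRNAs held 1.34%, 2.18% and 2.32% in old 1, old 2 and old 3, against 1.24%, 1.09% and 1.23% in young 1, young 2 and young 3, all old above all young (exact p = 0.1). Against TMM-scaled nuclear counts or on FPKM sums the rRNA shares of the groups overlapped (exact p = 0.2). The 22 tRNAs held 0.120%, 0.0604% and 0.124% in old 1, old 2 and old 3, against 0.0982%, 0.0877% and 0.0973% in young 1, young 2 and young 3, with old 2 below and the other old hearts above the young range (exact p = 1). All members together held 22.4% ± 4.68 in old hearts and 25.8% ± 0.87 in young hearts (SD, n = 3 each; exact permutation p = 0.4).

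The ratio of rRNA to mRNA reads does not depend on the library total. It was 6.72, 13.5 and 9.21 rRNA reads per 100 mRNA reads in old 1, old 2 and old 3, against 5.14, 4.26 and 5.16 in young 1, young 2 and young 3. All old hearts lay above all young hearts, with means of 9.80 ± 3.41 in old and 4.86 ± 0.517 in young hearts (SD, n = 3 each) and a mean log2 difference of 0.96 (exact two-sided permutation p = 0.1, the smallest possible). Old 2 had the highest ratio and the lowest mRNA share. Against the 5 mRNAs outside the chromosome 1 copy the log2 difference was 0.92. The number of tRNA reads per 100 mRNA reads was 0.603, 0.374 and 0.494 in old 1, old 2 and old 3, against 0.407, 0.343 and 0.409 in young 1, young 2 and young 3, with old 2 within the young range (exact p = 0.3).

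**Figure D4:**
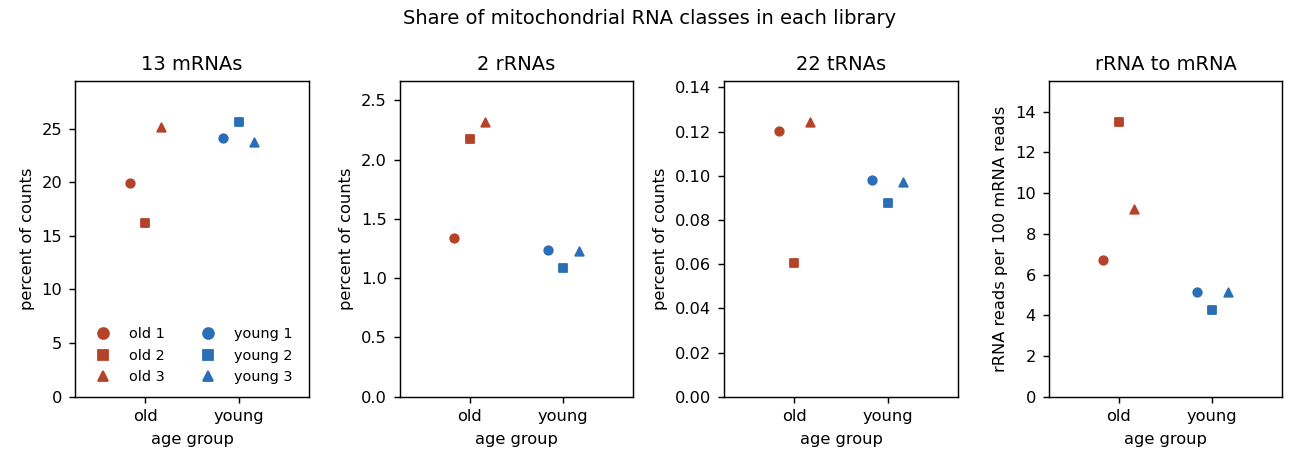
Percent of counts on named genes held by the 13 mRNAs, 2 rRNAs and 22 tRNAs, and rRNA reads per 100 mRNA reads, in each of 3 old hearts (left) and 3 young hearts (right). The rRNA share and the rRNA to mRNA ratio are higher in all old hearts than in any young heart, whereas the mRNA and tRNA shares overlap.

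Some mRNAs held a nearly constant part of mRNA reads between young hearts and a less constant one between old hearts, and others varied at both ages. mt-Nd1 made up 12.8% ± 1.22 of mRNA reads in old hearts, against 12.1% ± 0.0343 in young hearts (SD, n = 3 each). mt-Nd2 made up 6.45% ± 0.571 in old hearts, against 6.99% ± 0.00918 in young hearts (SD, n = 3 each). mt-Co2 varied more between young hearts, with 0.954%, 1.28% and 0.967% in old 1, old 2 and old 3, against 0.871%, 1.64% and 1.67% in young 1, young 2 and young 3. mt-Co1 made up 37.7%, 34.5% and 39.5% of mRNA reads in old 1, old 2 and old 3, against 40.7%, 41.4% and 40.8% in young 1, young 2 and young 3. All old hearts lay below all young ones, most so old 2. mt-Cytb made up 18.6%, 20.3% and 18.3% in old 1, old 2 and old 3, against 17.5%, 16.6% and 17.2% in young 1, young 2 and young 3, all old above all young. mt-Nd3 made up 0.153%, 0.206% and 0.131% in old 1, old 2 and old 3, against 0.0869%, 0.0764% and 0.0896% in young 1, young 2 and young 3, all old above all young as well. For the other 10 mRNAs the groups overlapped, mt-Nd4 included, whose share in old 3 (9.80%) lay within the young range (9.65% to 9.82%) while old 1 (13.3%) and old 2 (11.6%) lay above it. With the copy reads added, mt-Co1, mt-Cytb and mt-Nd3 kept these orders. The parts share a common total, so a lower part of mt-Co1 goes with a higher part of other mRNAs. No rate over all genes was taken for such parts, and on the CPM scale the groups did not overlap in 37.3% of all genes.

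Scaled to the total of the 13 mRNAs in place of all genes, 5 of the 31 members were called, beside 15.8% of all genes. Higher were mt-Rnr2 (1.07, edgeR adjusted p = 0.00329), mt-Rnr1 (0.90, 0.0223), mt-Nd3 (0.96, 0.030) and mt-Tr (1.08, 0.0349), beside 15.1% of all genes. Lower was mt-Nd4l (−1.10 ± 0.33, edgeR adjusted p = 0.00989), beside 0.742% of all genes. Its SE was 0.77 with TMM scaling, where it was not called, and why the SE was smaller here was not tested. As parts of mRNA reads its groups overlapped, with 0.0352%, 0.0158% and 0.0998% in old 1, old 2 and old 3. The parts were 0.172%, 0.116% and 0.0355% in young 1, young 2 and young 3. The groups also overlapped for mt-Tr on the CPM scale. This scaling takes the lower mRNA share of old 1 and old 2 as the baseline, so nuclear genes shift upwards with it.

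The tRNAs were measured unevenly, and reads on 5 of them made up 87.9% of the 87380 tRNA reads. These were mt-Tn with 27323 reads in all libraries, mt-Tc with 22488, mt-Tp with 18741, mt-Te with 4859 and mt-Ty with 3416. All 5 are encoded on the minus strand of the reference circle, as are 8 of the 22 tRNAs and, among the mRNAs, mt-Nd6. Their sequences are shown with the anticodon, the bases that read the codon, in capitals.
mt-Tn: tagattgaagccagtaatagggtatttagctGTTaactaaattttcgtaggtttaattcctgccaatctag
mt-Tc: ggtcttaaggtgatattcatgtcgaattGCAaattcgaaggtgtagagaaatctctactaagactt
mt-Tp: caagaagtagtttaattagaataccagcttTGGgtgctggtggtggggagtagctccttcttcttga
mt-Te: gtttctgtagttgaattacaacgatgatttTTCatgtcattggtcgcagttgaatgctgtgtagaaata
mt-Ty: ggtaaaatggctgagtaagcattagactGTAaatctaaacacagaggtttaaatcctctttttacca
They lie at chrM:5089-5159 (mt-Tn), chrM:5192-5257 (mt-Tc), chrM:15356-15422 (mt-Tp), chrM:14071-14139 (mt-Te) and chrM:5260-5326 (mt-Ty), on GRCm38. Each anticodon was found as the middle of a loop closed by 5 of 5 paired bases. Without the strand setting, reads of these tRNAs cannot be told from reads of the opposite strand at the same place, such as the precursor of the plus-strand genes on either side.

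No tRNA was called in edgeR (0 of 16 tested, 0 at an unadjusted p under 0.05, and 0 with DESeq2), and old 2 was the lowest library for all 5 of the abundant ones. mt-Tn, for asparagine, had 271.3, 220.7 and 439.1 CPM in old 1, old 2 and old 3, against 331.7, 286.1 and 310.5 CPM in young 1, young 2 and young 3 (0.00 ± 0.23, edgeR adjusted p = 0.993). mt-Tc, for cysteine, had 313.4, 180.6 and 353.5 CPM in old 1, old 2 and old 3, against 249.8, 197.9 and 225.9 CPM in young 1, young 2 and young 3 (0.33 ± 0.23, edgeR adjusted p = 0.343). For mt-Tc old 1 and old 3 lay above all young hearts and old 2 below them, and for mt-Tn the old hearts again lay on both sides. mt-Tp, for proline, had 260.1, 108.8 and 227.9 CPM in old 1, old 2 and old 3, against 217.2, 219.5 and 224.9 CPM in young 1, young 2 and young 3 (−0.15 ± 0.27, edgeR adjusted p = 0.736). mt-Te, for glutamate, ran from 11.9 to 75.7 CPM in old and from 47.1 to 64.3 CPM in young hearts, and mt-Ty, for tyrosine, from 14.97 to 56.2 CPM in old and from 36.2 to 37.3 CPM in young hearts.

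Without old 2 the tested tRNAs looked different. Then mt-Tc (0.57, edgeR adjusted p = 0.0457), mt-Ty (0.53, 0.0328), mt-Th for histidine (1.11, 0.0465) and mt-Ts2 for serine (1.09, 0.036) were called higher, beside the 10.4% of all genes given above. The median of the 16 tested tRNAs, set against the mean of the young hearts, was 1.34 in old 1, 0.475 in old 2 and 1.44 in old 3, against 1.09, 0.912 and 1.02 in young 1, young 2 and young 3. By these medians the tRNAs of old 1 lay above all young hearts, although mt-Tn, the most abundant, lay below them. In old 2 the median was below all young hearts.

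The 6 tRNAs that did not pass the filter had 0 to 54 reads in all libraries together. mt-Tf, the tRNA gene before mt-Rnr1, had 0 reads in both groups, which allows up to 3 reads per group by counting error alone. mt-Td had 0 reads in old and 3 in young hearts, and mt-Tt 10 reads in old and 3 in young hearts, counts too small for a comparison of levels. The tRNA genes are 59 to 75 bases long and the fragment length of the libraries is not given, so a low count need not mean a low level. mt-Tt was called higher by limma-trend on log2(FPKM + 1) (1.12, adjusted p = 0.00791) from these few reads, beside 12.7% of all genes, and mt-Ts1 in edgeR without old 1 (1.71, adjusted p = 0.0479), on 54 reads in all.

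Nuclear genes that make, cut, modify and degrade mitochondrial RNA were mostly not called. Of 70 tested, 2 were called higher and 5 lower, 10% in all beside 15.1% of all genes, with a median log2 fold change of −0.0027. Among 18 genes of transcription and DNA maintenance the 1 called was Mterf2, a member of the mitochondrial termination factor family, with 11.2 ± 1.81 CPM in old and 18.5 ± 0.523 CPM in young hearts (−0.73 ± 0.16, edgeR adjusted p = 0.019). Of genes picked after their values were seen, Polrmt, the mitochondrial RNA polymerase, was level (−0.04 ± 0.14, edgeR adjusted p = 0.862). Tfam, which packages the circle and acts in its transcription, was picked in the same way and did not pass (18.5 ± 3.04 CPM in old and 26.1 ± 0.44 CPM in young hearts, −0.49 ± 0.15, edgeR adjusted p = 0.0555).

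Among 24 genes of RNA processing, stability and decay, 1 was called higher and 2 lower. Grsf1, which binds mitochondrial RNA in granules, had 88.4, 60.6 and 57.2 CPM in old 1, old 2 and old 3, against 128.2, 110.6 and 109.2 CPM in young 1, young 2 and young 3 (−0.75 ± 0.18, edgeR adjusted p = 0.0244). Trmt10c, a subunit of the enzyme that cuts the 5′ ends of tRNAs, had 7.17, 7.09 and 6.61 CPM in old 1, old 2 and old 3, against 10.03, 11.9 and 10.9 CPM in young 1, young 2 and young 3 (−0.65 ± 0.17, edgeR adjusted p = 0.0305). Both were lower in all old hearts than in any young heart. Pnpt1, which degrades RNA in mitochondria, was higher, with 25.2, 18.7 and 27.3 CPM in old 1, old 2 and old 3, against 17.4, 15.2 and 14.7 CPM in young 1, young 2 and young 3 (0.59 ± 0.17, edgeR adjusted p = 0.0456). Lrpprc, which stabilises mitochondrial mRNAs and was also picked after its values were seen, did not pass (−0.45 ± 0.14, edgeR adjusted p = 0.0554).

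Among 28 genes of tRNA and rRNA modification, 1 was called higher and 2 lower. Mterf3, a termination factor family member like Mterf2 and linked to ribosome assembly, was counted in this list, not in that of transcription. Mterf3 had 44.9, 68.7 and 72.1 CPM in old 1, old 2 and old 3, against 34.6, 30.6 and 34.1 CPM in young 1, young 2 and young 3 (0.90 ± 0.18, edgeR adjusted p = 0.0133). Its old hearts followed the order of the rRNAs, lowest in old 1 and highest in old 3, an order not counted over all genes. Mettl15, a methyltransferase of the small-subunit rRNA, had 2.28 ± 0.624 CPM in old and 4.90 ± 0.446 CPM in young hearts (−1.09 ± 0.27, edgeR adjusted p = 0.0258). Osgepl1, which modifies mitochondrial tRNAs, had 23.0 ± 5.96 CPM in old and 37.2 ± 1.37 CPM in young hearts (−0.69 ± 0.18, edgeR adjusted p = 0.0315). Without young 1, young 2 or young 3 edgeR called 0 of the 70 genes (17, 15 and 13 at an unadjusted p under 0.05), beside 3.63% to 4.18% of all genes. Without old 1 there were 20 of 70, beside 37.9% of all genes.

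In edgeR with all libraries and the filter on low counts, the nuclear partners of the encoded subunits were lower where they were called. They cover the 4 complexes with mitochondrially encoded members and complex II, which has none. Of 81 tested nuclear subunits 13 were called lower and 0 higher (edgeR), and 5 were higher at an unadjusted p under 0.05. This was 16% lower beside 6.36% of all genes, with a median log2 fold change of −0.11. DESeq2 called 1 higher and 18 lower, beside 16.9% of all genes. With no filter on low counts edgeR called 3 higher and 16 lower, beside 11.9% of all genes. In complex I 4 of 36 were lower, among them Ndufa10 (−0.63 ± 0.15, edgeR adjusted p = 0.0242), Ndufab1 (−0.58 ± 0.13, 0.0169) and Ndufc2 (−0.57 ± 0.12, 0.0148), with a median of −0.03 beside −0.32 for its 7 encoded members. In complex III 3 of 9 were lower, Uqcrc2 (−0.91 ± 0.24, edgeR adjusted p = 0.0319), Uqcrfs1, the iron-sulphur protein (−0.69 ± 0.15, 0.0155), and Cyc1, cytochrome c1 (−0.62 ± 0.13, 0.0164), with a median of −0.22 beside −0.15 for mt-Cytb.

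In complex IV 1 of 14 was lower, Cox5a, an early-assembling subunit, with 238.1, 210.4 and 231.0 CPM in old 1, old 2 and old 3, against 497.4, 404.1 and 439.7 CPM in young 1, young 2 and young 3 (−0.98 ± 0.14, edgeR adjusted p = 0.00338). Its old hearts were close together and all below the young ones, unlike those of mt-Co1, and the call held with each library left out (edgeR adjusted p = 0.000299 to 0.0275). The median of these 14 was −0.06 beside −0.42 for the 3 encoded members. In ATP synthase 2 of 18 were lower, Atp5g1 (−0.61 ± 0.15, edgeR adjusted p = 0.0278) and Atp5a1 (−0.49 ± 0.14, 0.0461), with a median of −0.08 beside −0.06 for the 2 encoded members. In complex II 3 of 4 were lower, Sdhd (−1.09 ± 0.17, edgeR adjusted p = 0.00555), Sdha (−0.78 ± 0.19, 0.0244) and Sdhc (−0.69 ± 0.18, 0.0315). Without young 1, young 2 or young 3 there were 2 calls among the 81 nuclear subunits, beside 3.63% to 4.18% of all genes. Without old 3 there were 3, beside 6.23% of all genes, and without old 1 there were 43 (27 lower and 16 higher), beside 37.9% of all genes. The cardiomyocyte marker sum was also lower in all old hearts, and its part in these differences was not tested.

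**Figure D5:**
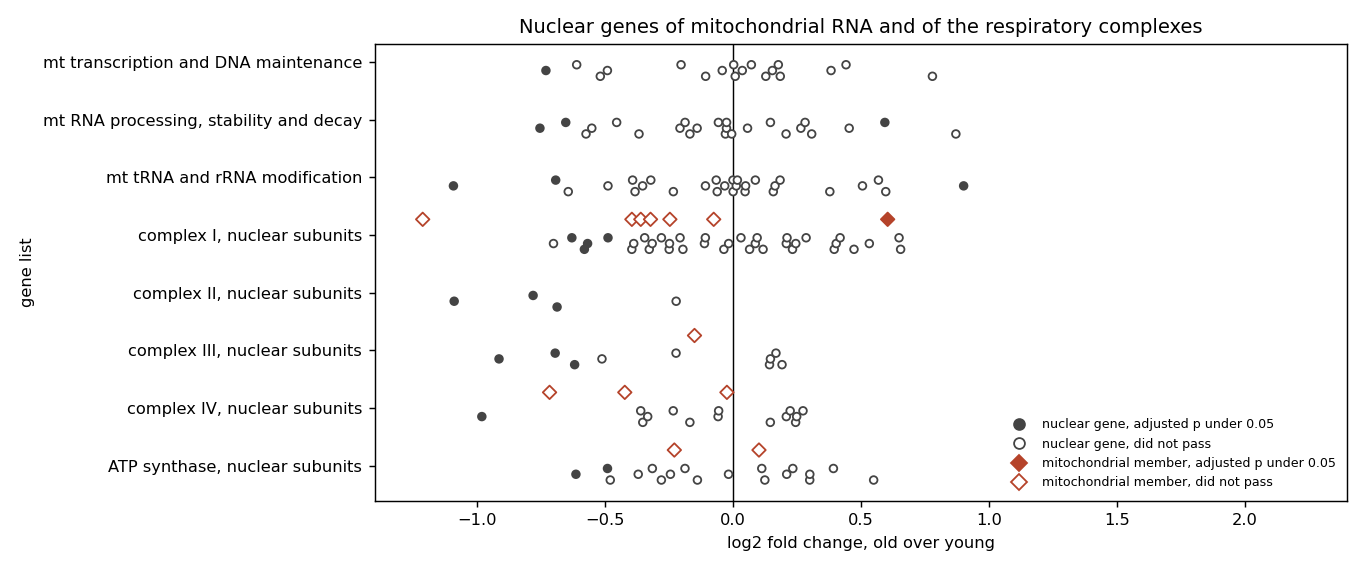
Log2 fold change of old over young for each tested nuclear gene of 3 lists on mitochondrial RNA and 5 respiratory complexes (grey circles), with the mitochondrially encoded members of the same complex above them (red diamonds); filled symbols have an edgeR adjusted p under 0.05. All 13 filled circles among the complexes lie below 0, and mt-Nd3 at 0.60 is the only filled diamond.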

How the data were processed

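RNA of 6 mouse hearts was measured by sequencing. Per the submitters' processing notes, reads were aligned with HISAT2 to GRCm38.p6 and counted with featureCounts of Subread; no version, annotation release, strand setting or rule for reads with several matches is given in the sources used. The authors deposited whole-number counts of reads per gene, and FPKM values for 13170 genes, scaled to gene length and depth. From the counts, 571 models without a name (0.295% to 0.368% of counts) were left out. Genes were filtered with filterByExpr, scaled by TMM and tested by quasi-likelihood F tests in edgeR 4.0.16 (R 4.3.3; limma 3.58.1 and DESeq2 1.42.0 as alternatives); the methods were tested on simulated data. The biological coefficient of variation was 0.187. Each SE is approximate, the size of the log2 fold change over the root of the F statistic. Shares and ratios were compared by exact permutation of the libraries. Count totals differed from the library totals implied by FPKM by −9.88% to −0.265%. Nuclear copies were found with BLAST+ 2.17.0 (at least 95% identity over 40 bases) in GENCODE M21 transcripts. No libraries were alike within counting noise. Members and lists were chosen with earlier results of these data known. The text names every mRNA and rRNA, and some of the tRNAs. Of each nuclear list it names the called genes (at most 3, smallest p) and genes marked as picked after their values were seen. It also names nuclear copies with a mean of at least 1 CPM.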

Additional observations from a re-analysis of the deposited data

How the results depend on the processing

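With 1 library left out, the number of genes changed ran from 539 to 5570 (2174 with all), of members from 0 to 5 (1), of nuclear factors of mitochondrial RNA from 0 to 20 (7) and of nuclear subunits from 2 to 43 (13). Members called were 3 with no filter on low counts, 3 with DESeq2, 2 with limma-trend on FPKM at a pseudocount of 1 or 0.1, and 5 with the 13 mRNAs as library size; with RLE or upper-quartile factors, scaling from nuclear genes, a filter at 1 CPM, limma-voom or the copy reads added (chosen after seeing the data) there was 1. Same-numbered libraries did not deviate together over all genes (correlations −0.09, −0.07 and 0.03), beside −0.10 to 0.15 for libraries of different number. A pairing of the hearts that touches few genes cannot be seen in these correlations. With the replicate block 1774 genes and 1 member (mt-Nd3, edgeR adjusted p = 0.0379) were called.

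Some low or level members turned. mt-Tl1 was −0.084 with limma-voom, −0.0901 and −0.0907 on FPKM at pseudocounts of 1 and 0.1, and −0.0616 with the block. mt-Tn was −0.0358 with upper-quartile factors, −0.0087 with no filter, −0.0073 with DESeq2, −0.0546 with limma-voom, −0.0601 on FPKM at either pseudocount and −0.0561 with the block. mt-Ty was −0.0753 with limma-voom, −0.0818 and −0.0825 on FPKM and −0.0411 with the block. mt-Tl2 was −0.23 with limma-voom, −0.25 on FPKM at either pseudocount and −0.16 with the block. mt-Ts2 was −0.0137 and −0.0383 on FPKM, mt-Co3 0.0223 with the copy added, and Gm10222 −0.0201 with upper-quartile factors. With 1 library left out, ranges crossed 0 for mt-Tl1 (−0.24 to 0.41), mt-Tm (−0.46 to 0.28), mt-Tw (−0.40 to 0.32), mt-Tn (−0.33 to 0.20), mt-Ty (−0.18 to 0.53), mt-Atp8 (−1.03 to 0.14), mt-Atp6 (−0.17 to 0.38), mt-Co3 (−0.60 to 0.31), mt-Tg (−0.0734 to 0.66), mt-Nd4 (−0.16 to 0.0679), mt-Tl2 (−0.58 to 0.60), mt-Te (−0.57 to 0.30), mt-Tp (−0.39 to 0.14), Gm10222 (−0.10 to 0.14), Gm28438 (−0.0387 to 0.55), Gm28661 (−0.0198 to 0.25) and Gm29216 (−0.46 to 0.13). The log2 difference of the tRNA share of counts was 0.0355, −0.15 to 0.37 with 1 library left out, −0.01005 with TMM-scaled nuclear counts as the total and −0.0128 on FPKM sums. The mRNA share (−0.45 to −0.13), the rRNA share (0.53 to 0.92) and the rRNA to mRNA ratio (0.70 to 1.20) kept their direction with 1 library left out. For these reversals the cause was not tested. Of 1047 alternatives over 62 single genes, 874 kept direction and side of the threshold, 101 lost the call, 20 gained it and 52 reversed. Precision was limited by 3 hearts per age, by the spread of the old hearts and, for 6 untested tRNAs, by depth.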
